A study of Mus musculus with 2 samples.

Results

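The potassium channel genes are the protein-coding genes of the GENCODE M21 mouse annotation whose symbols start with Kcn. The symbol alone decides membership. They number 94 of 21911 protein-coding genes. For each gene, open regions were taken within 1 kb of any annotated transcript start and within the gene and 20 kb on either side. Kcna3, Kcnn4 and Kcnk5, the potassium channels best known from lymphocytes, were set against the other 91.

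The regions come from ATAC-seq, in which a transposase cuts accessible DNA, of T-helper 1 (Th1) primary cells of C57BL/6NJ mice. The study holds a single group of 2 biological replicates, so conditions cannot be compared and the replicate difference is the only error. Both replicates carry the same donor identifier, sex was not collected, the age is unknown, and whether 1 animal or several gave the cells is not stated, so the difference between replicates may be technical. The labels call the assay ATAC-seq, while names of regions in the lists hold the words ASTARR, insert and masked, and what these words say of the libraries is not stated in the sources used here. Differentiation was described only in a linked protocol that was not used here.

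Replicate 1 had 98875 regions and replicate 2 had 91488, and 84380 shared regions resulted where both lists overlapped by at least 1 bp. A promoter is called open where such a shared region lies within 1 kb of a start. The signal is the enrichment of a region as the deposited lists give it, and its denominator is not stated. All 12 T cell markers and all 6 Th1 markers checked had open promoters, with Tbx21 at signals of 5.48 and 5.65 and Ifng at 7.25 and 6.55 in replicates 1 and 2. Of markers of other cells, 5 of 8 B cell, 2 of 8 myeloid, 6 of 8 neuronal, 2 of 8 cardiac and skeletal muscle and 6 of 8 epithelial genes had open promoters too. Open promoters in these lists were thus not limited to genes of T cells, and whether other cells were present was not tested.

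Potassium channels let potassium leave the cell and so hold the membrane potential negative. In T cells this electrical driving force sustains the calcium entry through store-operated channels that follows antigen recognition. Kcna3 encodes a channel opened by voltage, Kcnn4 a channel opened by intracellular calcium through calmodulin, and Kcnk5 a two-pore leak channel tied to the regulation of cell volume. Most other members are known from neurons, muscle, heart, kidney or secretory cells.

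Of the 94 potassium channel genes, 53 (56.4%) had an open promoter, beside 65.9% of all protein-coding genes. All 3 lymphocyte channels were open, and 50 of the other 91 (54.9%) were. The 41 closed members were alike in both lists: 39 had no region within 1 kb of a start in either replicate. Kcnj1, a kidney channel, had a region in replicate 2 alone, with a signal of 2.61. Kcnn2, a small-conductance calcium-activated channel, had a region in each list, with signals of 2.63 in replicate 1 and 2.76 in replicate 2, but these did not overlap. The families of voltage-gated sodium channels (11 of 14 genes, 78.6%) and voltage-gated calcium channels (18 of 26, 69.2%) had higher shares of open promoters than the potassium channel genes. With 94, 14 and 26 genes these shares are a description, and no test was made.

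The open potassium channel promoters had low signals. Their median was 7.78 in replicate 1 and 7.56 in replicate 2, against 11.3 and 11.1 for all open protein-coding genes. Ranked among all open genes, the median potassium channel promoter stood at percentile 22.8, against 50.1 for all. By −log10 q, the caller's measure of confidence, it stood at percentile 18.5, against 50 for all. Low medians were also seen for the T cell markers, at 7.08 and 6.79, and for the Th1 markers, at 6.03 and 5.95. None of the 65 promoter regions of the members differed by more than 1.5-fold between replicates, and the replicate summits lay a median of 29 bp apart.

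**Figure D1:**
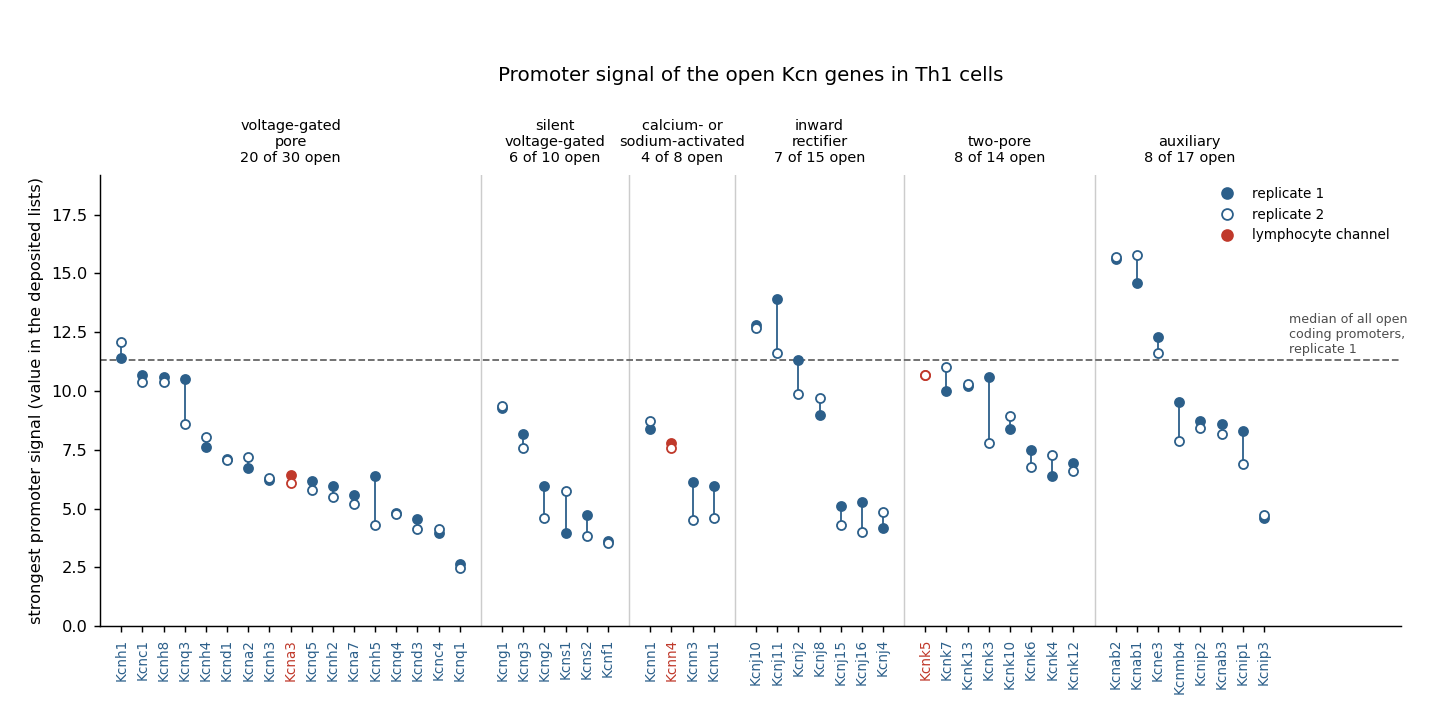
Signal of the strongest promoter region of 50 of the 53 open Kcn genes, grouped by role, with replicate 1 filled, replicate 2 open and the lymphocyte channels in red. The dashed line is the median of all open protein-coding genes in replicate 1 (11.3). Most members lie below it, and Kcnq1 is lowest.

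Kcna3 is a gene of 1 exon, 1902 bp long, at chr3:107036169-107038070 on the plus strand of mm10. Its only promoter region, chr3:107035652-107039116, covered the whole gene, reaching 517 bp before its start and 1046 bp past its end. At 3465 bp this was the widest of the 65 promoter regions, whose median width was 1200 bp. Its signal was 6.43 in replicate 1 and 6.07 in replicate 2, at percentile 14.4 of open genes, and its −log10 q was 110.4 and 84.8, at percentile 26.4. The summit is the peak point given in the deposited lists. In both replicates it lay 2120 bp past the start and 219 bp past the annotated end of the gene. A rule that asks for the summit itself within 1 kb of a start would thus call the Kcna3 promoter closed. The start of the noncoding gene AI504432 also lies within 1 kb of this region, so the signal cannot be assigned to Kcna3 alone. A stronger and much narrower region, chr3:107054890-107055289, lay 18.9 kb past the start, with signals of 13.9 and 13.7, at percentile 90 of all shared regions. A weaker one 12.1 kb past the start had signals of 5.26 and 4.45. No shared region lay in the 20 kb before the region at the start.

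Kcnn4 lies at chr7:24370263-24386690 on the plus strand. Its promoter region, chr7:24369511-24370524, had signals of 7.78 and 7.57, at percentile 22.8, but −log10 q values of 518.8 and 445.0, at percentile 91.3. The order of the lymphocyte channels therefore depends on the measure: Kcnk5 was highest by signal and Kcnn4 by −log10 q. The summit lay 237 bp before the GENCODE start in both replicates, which is 200 bp past the start that RefSeq places 437 bp further upstream. Kcnn4 had 8 shared regions in its window, at percentile 89.3 among genes of similar length, and they covered 19.9% of the gene. Within the gene, signals were 3.07 and 2.78 at 3.4 kb, 2.26 and 2.27 at 7.1 kb, and 5.18 and 5.54 in an intron at 10 kb. At the gene's end, 17.2 kb from the start, they were 4.75 and 5.02. In the flanks, a region 5.2 kb before the start had signals of 3.14 and 2.64, and one at 24.4 kb had 7.94 and 8.44. The strongest region of the window, with signals of 14.8 and 14.3 at 29.4 kb, was the promoter of the neighbouring gene Smg9.

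Kcnk5 lies at chr14:20140057-20181809 on the minus strand. Its promoter region, chr14:20180501-20182100, had a signal of 10.7 in both replicates. At percentile 45.6 this was the highest mean signal percentile among the open two-pore channel genes, with Kcnk7 next at 44.0. The −log10 q was 180.0 and 154.0, at percentile 42.1, below Kcnk7 at percentile 77.3. The summit lay 11 bp before the start in replicate 1. A pair of intronic regions were as strong as the promoter. The first, chr14:20173056-20174443, 7.8 kb into the gene, had signals of 11 and 10.2, and the second, chr14:20154743-20155772, 26.7 kb into the gene, had 10.7 and 11.3. The signals of these 3 regions overlapped between replicates. The only other region of the window, at 42.4 kb, was the promoter of Saysd1, with signals of 3.49 and 3.02. With 4 regions Kcnk5 stood at percentile 30.8 among genes of its length.

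**Figure D2:**
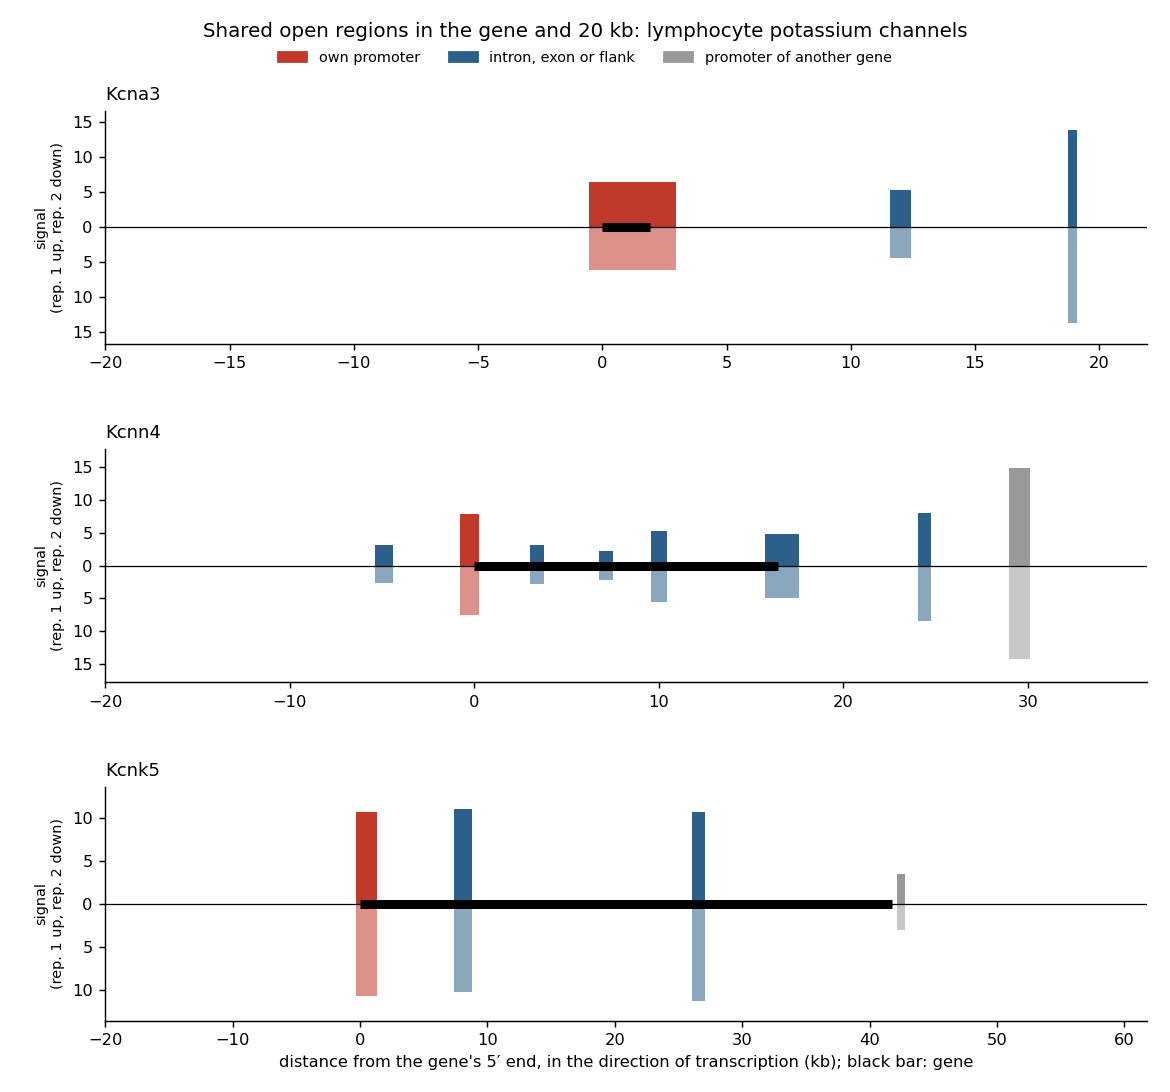
Shared regions of Kcna3, Kcnn4 and Kcnk5 by distance from the gene's 5′ end in kb, with the signal of replicate 1 upward and of replicate 2 downward. The black bar is the gene. The Kcna3 promoter region spans the gene, Kcnn4 has many weak regions and 1 strong neighbouring promoter, and Kcnk5 has 3 regions of about equal height.

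The sequence upstream of these starts differs between the lymphocyte channels, and 150 bases before the start are shown for each, on the strand of the gene and from the mm10 reference, which is of C57BL/6J and not of the strain sequenced. For Kcna3, Kcnn4 and Kcnb2 the 150 bases end at the RefSeq start, so that no annotated transcript is included. Kcnb2, a delayed rectifier whose promoter was closed although it is CpG-rich, is shown in the same way for contrast. Capitals mark matches, on either strand, to the GC box GGGCGG and to the NFAT word TGGAAA.
Kcna3, chr3:107036012-107036161, plus strand: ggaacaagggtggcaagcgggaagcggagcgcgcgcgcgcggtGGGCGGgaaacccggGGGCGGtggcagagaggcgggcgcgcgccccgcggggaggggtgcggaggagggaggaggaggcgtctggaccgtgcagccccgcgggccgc
Kcnn4, chr7:24369676-24369825, plus strand: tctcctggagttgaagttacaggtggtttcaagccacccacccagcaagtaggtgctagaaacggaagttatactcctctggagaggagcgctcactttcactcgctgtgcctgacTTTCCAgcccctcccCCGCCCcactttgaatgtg
Kcnk5, chr14:20181810-20181959, minus strand: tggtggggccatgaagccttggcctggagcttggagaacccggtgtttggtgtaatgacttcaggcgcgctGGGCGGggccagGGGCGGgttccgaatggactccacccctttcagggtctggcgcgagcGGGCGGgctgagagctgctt
Kcnb2, chr1:15286775-15286924, plus strand: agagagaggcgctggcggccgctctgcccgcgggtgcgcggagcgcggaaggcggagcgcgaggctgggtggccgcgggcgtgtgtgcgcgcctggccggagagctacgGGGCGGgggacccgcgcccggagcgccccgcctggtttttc
Kcna3 has 23 CpG pairs and 80.0% G and C, Kcnk5 has 10 pairs and 66.0%, and Kcnn4 has 4 pairs and 54.7%. The closed Kcnb2 promoter, with 25 CpG pairs and 79.3% G and C, resembles that of Kcna3 by these measures. A GC box was found in each of the 4 stretches. Over the 150 bases before the GENCODE 5′ end, 37 of 94 potassium channel genes (39.4%) held a GC box, against 35.0% of all protein-coding genes, and 11.7% held the NFAT word, against 9.99%.

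The stronger regions outside the promoters of the lymphocyte channels are shown next, with 100 bases on either side of the replicate 1 summit and on the gene's strand, because 4 of them hold the AP-1 word and 1 does not. Of the regions outside promoters that are not shown, the one at the end of Kcnn4 holds it. The weaker Kcna3 region and the remaining Kcnn4 regions do not. Capitals mark the CCAAT box and TGANTCA, with N any base, which was searched as the word of AP-1 factors. These factors act in activated T cells.
Kcna3, 18.9 kb past the start, chr3:107054920-107055120: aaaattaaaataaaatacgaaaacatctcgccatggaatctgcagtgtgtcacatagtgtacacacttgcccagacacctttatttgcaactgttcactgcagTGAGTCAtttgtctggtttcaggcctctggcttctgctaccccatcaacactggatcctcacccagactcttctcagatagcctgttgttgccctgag
Kcnn4, intron at 10 kb, chr7:24380154-24380354: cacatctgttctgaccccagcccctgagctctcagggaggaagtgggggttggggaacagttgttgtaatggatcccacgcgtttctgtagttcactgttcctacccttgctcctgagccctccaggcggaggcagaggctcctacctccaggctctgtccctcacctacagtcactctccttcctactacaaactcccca
Kcnn4, 24.4 kb past the start, chr7:24394550-24394750: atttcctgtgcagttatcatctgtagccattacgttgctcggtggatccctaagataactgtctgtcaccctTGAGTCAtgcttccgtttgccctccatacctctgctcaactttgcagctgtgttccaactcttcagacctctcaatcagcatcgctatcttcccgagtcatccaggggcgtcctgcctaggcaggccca
Kcnk5, intron at 7.8 kb, chr14:20173908-20174108: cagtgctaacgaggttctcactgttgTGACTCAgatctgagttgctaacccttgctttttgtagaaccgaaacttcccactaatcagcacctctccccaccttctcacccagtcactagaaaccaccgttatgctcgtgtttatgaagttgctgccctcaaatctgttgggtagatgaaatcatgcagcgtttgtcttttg
Kcnk5, intron at 26.7 kb, chr14:20155044-20155244: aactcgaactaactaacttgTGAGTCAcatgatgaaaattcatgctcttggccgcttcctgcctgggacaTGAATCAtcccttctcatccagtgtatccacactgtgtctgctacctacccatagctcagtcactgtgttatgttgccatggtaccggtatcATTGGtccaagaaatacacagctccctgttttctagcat
The Kcnk5 intron at 26.7 kb holds 2 matches to the AP-1 word, TGAGTCA and TGAATCA, and a CCAAT box. Among the 321 regions in the members' windows that lay over 1 kb from any start, 29.0% held the AP-1 word around the replicate 1 summit and 27.7% around the replicate 2 summit. Among all 62842 such shared regions the shares were 30.8% and 30.5%. The members' distal regions were thus close to all others in AP-1 words. They were likewise close in the NFAT word, at 16.5% and 16.8% against 16.7% and 16.8%. Shares were somewhat lower for the RUNX word TGTGGTT, at 8.41% and 9.35% against 10.8% and 10.7%. Shares were somewhat higher for the GC box, at 7.48% and 6.54% against 5.23% and 5.22%. The same held for the T-box word AGGTGTG, at 7.48% and 6.54% against 5.55% in both replicates. The ETS word CCGGAAG stood in 2.18% in both, against 1.57% and 1.58%. These differences rest on few regions, with 24 and 21 of the 321 for the T-box word, and no test was made.

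The promoter regions differed in some words and were close to all others in AP-1 and CCAAT. The AP-1 word stood in 10.8% of the members' promoter regions in both replicates, against 10.1% and 10.2% for all coding genes. The CCAAT box stood in 24.6% in both, against 26.3% and 25.8%. The GC box stood in 52.3% and 53.8% of the 65 promoter regions of potassium channel genes, against 44.7% and 44.3% of 17974 promoter regions of all coding genes. The ETS word CCGGAAG, common in promoters of genes active in many cell types, stood in 2 of the 65 around the replicate 1 summit and 3 around that of replicate 2 (3.08% and 4.62%), against 10.6% in both replicates. The RUNX word stood in none, against 4.55% and 4.56%, and the NFAT word in 3.08% and 1.54%, against 10% and 10.1%. The T-box word AGGTGTG, of the kind bound by the Th1 factor encoded by Tbx21, stood in 4 of 65 (6.15%) in both replicates, against 3.43% and 3.4%. The 4 are promoter regions of Kcnn4, Kcnd3, Kcnip1 and Kcnk13, and all but that of Kcnk13 hold the AP-1 word too. These counts are small, no test was made, and a match is not evidence of binding. RE1, the site of the neuronal gene repressor REST, searched as CAGCACC, any 2 bases and GGACAG, was found at the replicate 1 summit of the Kcnk12 promoter and in a flanking region upstream of Kcnh2, and in no other region of the members. It stood in 1.54% of the 65 promoter regions in replicate 1 and 0% in replicate 2, against 0.161% and 0.156% for all coding genes. Of the members' 321 regions over 1 kb from any start 0.312% held it in both replicates, against 0.0366% and 0.035% of all such regions.

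CpG content of the starts divided the family. A gene was called CpG-rich where the 500 bp on either side of any start had at least 55% G and C and an observed over expected CpG of at least 0.6. By this rule 50 of the 94 members (53.2%) were CpG-rich, against 46.0% of all protein-coding genes. Of these 50, 34 had an open promoter, 68.0% with an exact 95% binomial interval of 53.3 to 80.5, beside 94.1% of all CpG-rich genes. Of the 44 members without a CpG-rich start 19 were open (43.2%), beside 41.8% of all such genes. The lower share of open promoters therefore lay in the CpG-rich class. The open CpG-rich members also had lower signals, with medians of 8.28 and 7.83 against 11.8 and 11.5 for all open CpG-rich genes. Without a CpG-rich start the medians were 7.1 and 7.05 for members and 10.1 and 9.94 for all genes.

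Many of the 16 CpG-rich members with closed promoters are known from neurons or heart. They are the voltage-gated Kcna1, Kcna6, Kcnb2, Kcnd2 and Kcnh7, the silent subunit Kcns3, the calcium- or sodium-activated Kcnma1, Kcnn2 and Kcnt1, the inward rectifiers Kcnj6 and Kcnj12, the two-pore Kcnk1, Kcnk2, Kcnk9 and Kcnk15, and the auxiliary Kcnip4. For 7 of these 16, no shared region was found in the gene or within 20 kb of it. The open CpG-rich members include genes of such tissues too, among them the cardiac Kcnq1, and tissues were not compared.

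**Figure D3:**
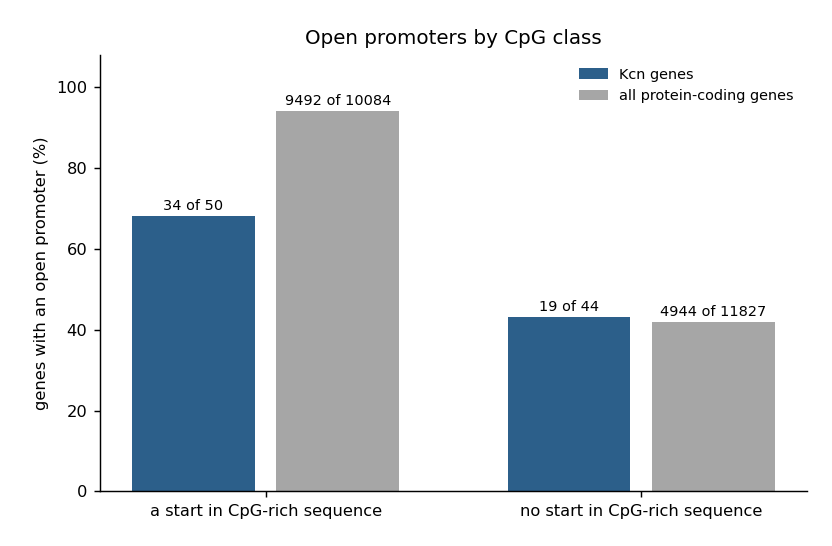
Percent of genes with an open promoter, Kcn genes in blue and all protein-coding genes in grey, for genes with and without a start in CpG-rich sequence, with the counts above the bars. The bars differ for the CpG-rich genes (68.0% and 94.1%) and are close for the others (43.2% and 41.8%).

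Of the 30 voltage-gated pore genes 20 were open (66.7%), the highest share of the 6 roles but close to the 65.9% of all protein-coding genes. The role also had the highest share of CpG-rich genes, 73.3%. Of these CpG-rich genes 77.3% were open, against 80.0% for both the silent and the auxiliary subunits. Kcnh1, of the ether-a-go-go family, had signals of 11.4 and 12.1, near the median of all genes. Kcnc1, a fast delayed rectifier, had 10.7 and 10.4 near a noncoding start 26.2 kb into the gene, but 6.33 and 7.09 at its first start. Kcnh8, of the ether-a-go-go family too, had 10.6 and 10.4.

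Kcnq1, the pore of the slow cardiac current, was the weakest open member. Its promoter region had signals of 2.63 and 2.46, at percentile 0.601, with −log10 q of 2.85 and 2.02. Inside the same gene, the promoter region of the imprinted antisense RNA Kcnq1ot1, chr7:143295637-143297005, had 13.8 in both replicates. An intronic region 26.6 kb from the start reached 14.3 in both, and another at 47.7 kb had 12.1 and 12.6. Kcnq1 was thus open in its interior, while its promoter signal stood near the bottom of all open genes.

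Most Kcna genes lie in a pair of clusters. On chromosome 3, Kcna3 is followed by Kcna2 after 63.1 kb and by Kcna10 after another 68.0 kb. Kcna2 had an open promoter, with signals of 6.73 and 7.2, both above those of Kcna3, and Kcna10 had none. By −log10 q the order was reversed, with 41.6 and 41.5 for Kcna2 against 110.4 and 84.8 for Kcna3. On chromosome 6, Kcna5, Kcna1 and Kcna6 had no open promoter, and their windows held 1 shared region in all, near Kcna6. Kcna4, a rapidly inactivating channel, had no shared region in its window. Kcna7 had signals of 5.56 and 5.21.

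Kcnq5, a subunit of the M-type channel, had 31 shared regions in its window, the most of any member, at percentile 95.6 among genes of its length. Of these, 28 lay in introns and 6 stood above the 90th percentile of all shared regions. Its promoter had only 6.19 and 5.79. The strongest intronic region, chr1:21425439-21426263, lay 536.1 kb from the start and had signals of 17.6 and 17.4, at percentile 98.8. It is shown with 100 bases on either side of its summit and the AP-1 word in capitals, because it is the strongest intronic region of a voltage-gated member.
Kcnq5, intron at 536.1 kb, chr1:21425729-21425929, minus strand: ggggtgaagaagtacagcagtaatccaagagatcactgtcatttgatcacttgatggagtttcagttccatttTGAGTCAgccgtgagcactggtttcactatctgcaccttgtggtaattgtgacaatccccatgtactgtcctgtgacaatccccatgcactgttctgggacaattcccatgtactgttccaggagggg
By contrast, Kcnd2 and Kcnb2, which are 514 kb and 436 kb long, had no shared region in their windows.

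**Figure D4:**
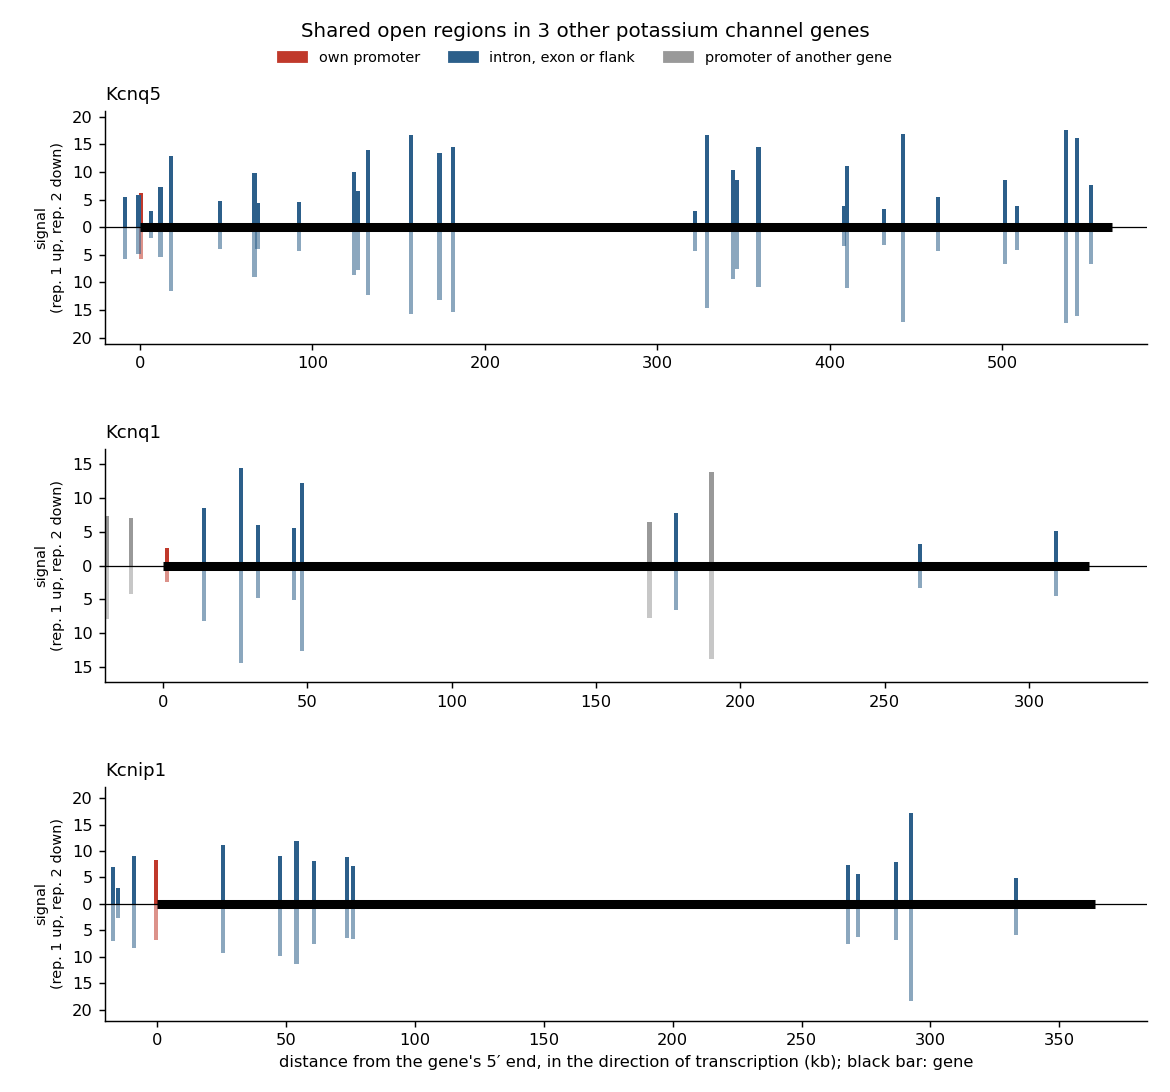
Shared regions of Kcnq5, Kcnq1 and the auxiliary gene Kcnip1 by distance from the gene's 5′ end in kb, with the signal of replicate 1 upward and of replicate 2 downward. In each gene an internal region is stronger than the region at the 5′ promoter.

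Silent voltage-gated subunits form no channel by themselves and assemble with other voltage-gated subunits. Of the 10 genes 6 were open (60.0%), with weak signals. Kcng1 was highest with 9.28 and 9.37, at percentile 34.3, and Kcnf1 lowest with 3.6 and 3.53, at percentile 2.95. Kcng2 had the most regions, 10, and promoter signals of 5.95 and 4.61.

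Of the 8 calcium- or sodium-activated channel genes 4 were open (50%), and none of the 4 has a CpG-rich start. Besides Kcnn4 these were Kcnn1 with 8.37 and 8.73, Kcnn3 with 6.11 and 4.5, and the sperm channel gene Kcnu1 with 5.95 and 4.61. Only the edge of this Kcnn1 region came within 1 kb of the first start, and its summit lay 2.4 kb before that start in both replicates. The other Kcnn1 promoter region, at a coding start 6.2 kb into the gene, had lower signals of 7.1 and 6.71. The Kcnu1 region is shared with the promoter of Ash2l. Kcnn1, of the small-conductance class, had 11 shared regions and stood at percentile 98.0 among genes of its length, the highest such value of the members, although 2 of the 11 were promoters of the neighbours Ccdc124 and Arrdc2. Kcnma1, the large-conductance channel, had no open promoter and 3 intronic regions.

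Inward rectifiers pass potassium more readily inward and set resting potentials. Of 15 genes 7 were open (46.7%). The strongest were Kcnj11, the pore of the ATP-sensitive channel of pancreatic beta cells, with 13.9 and 11.6, and Kcnj10, a glial channel, with 12.8 and 12.7. Both stood at percentile 64.2, and Kcnj2 had 11.3 and 9.86. Kcnj4 was lowest by mean percentile, with 4.19 and 4.84. Of the G-protein-gated channels Kcnj3, Kcnj5, Kcnj6 and Kcnj9 none was open, although Kcnj6 had an intronic region 152.8 kb from its start with signals of 16.4 and 16.1.

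Two-pore channels carry background leak currents. Of 14 genes 8 were open (57.1%). After Kcnk5 the highest by mean signal percentile was Kcnk7 with 10 and 11, above Kcnk5 in replicate 2. By −log10 q Kcnk7 was the highest of the role, with 338.9 and 361.3, at percentile 77.3. Kcnk13 had 10.2 and 10.3. Kcnk3 had 10.6 and 7.78 near a noncoding start 33.2 kb into the gene, but 5.82 and 6.14 at its first start. Kcnk12 was lowest by mean percentile with 6.92 and 6.6, and Kcnk4 was lower in replicate 1 with 6.38. Kcnk10, a stretch-sensitive channel, had 16 regions, with its strongest in an intron at 133.3 kb (17.3 and 17.0). Kcnk16, the neighbour of Kcnk5 at a distance of 79.6 kb, was closed.

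Auxiliary subunits form no pore. Of 17 genes 8 were open (47.1%). Kcnab2, a cytosolic beta subunit that binds Kcna channels, was highest by mean percentile, with 15.6 and 15.7 at percentile 88.7, and by −log10 q, with 562.0 and 491.0, at percentile 94.0. The region lies within 1 kb of a start of Nphp4 too, so its signal cannot be assigned to Kcnab2 alone. A further Kcnab2 promoter, 29.1 kb into the gene and not near another gene's start, had signals of 9.02 and 9.47. The other beta subunits were open as well. Kcnab1 had 14.6 and 15.8, but near a retained-intron start 244.4 kb into the gene and not at its first start, and Kcnab3 had 8.58 and 8.15. Of the Kcne subunits only Kcne3 was open, with 12.3 and 11.6, and of the Kcnmb subunits of the large-conductance channel only Kcnmb4, with 9.55 and 7.89.

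The Kcnip proteins bind Kcnd channels and calcium. Kcnip3, which is also known as a transcriptional repressor, had the lowest promoter of the open auxiliary genes, with 4.59 and 4.74, and 13 regions in its window, the strongest of them in an intron at 59.6 kb, with signals of 16.4 and 16.8. Kcnip1 had 15 regions, the most of the role. At its promoter, a region near a noncoding start alone, the signals were 8.31 and 6.91. Its strongest region, chr11:33700420-33701449, lay in an intron 292.3 kb from the start and had signals of 17.2 and 18.4. It is the strongest region of any member outside a promoter, by the mean over replicates, and the 100 bases on either side of its summit hold none of the words searched.
Kcnip1, intron at 292.3 kb, chr11:33700739-33700939, minus strand: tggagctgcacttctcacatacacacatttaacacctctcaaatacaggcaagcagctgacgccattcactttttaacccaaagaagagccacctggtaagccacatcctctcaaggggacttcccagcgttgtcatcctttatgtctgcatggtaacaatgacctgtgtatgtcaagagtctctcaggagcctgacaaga

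Over all members the windows held 455 different shared regions. Of these, 65 were promoters of members, 69 promoters of other genes, 148 intronic, 21 exonic, 61 in the upstream and 91 in the downstream flank. Members and all protein-coding genes alike had a median of 4. The members were longer, with a median length of 30.8 kb against 17.4 kb. Within the 10 length classes the median percentile of the members was 43.5, against 51.0 for all genes. Kcnn1, Kcnq5 and Kcna7 stood above the 90th percentile of their length class, 3 of 94, beside 9.37% of all genes. No shared region was found in the windows of 15 members (16.0%), beside 20.2% of all genes. The 15 are Kcna1, Kcna4, Kcna5, Kcnb2, Kcnc2, Kcnd2, Kcns3, Kcnv1, Kcnn2, Kcnt2, Kcnj3, Kcnk1, Kcnk2, Kcne4 and Kcnmb2.

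**Figure D5:**
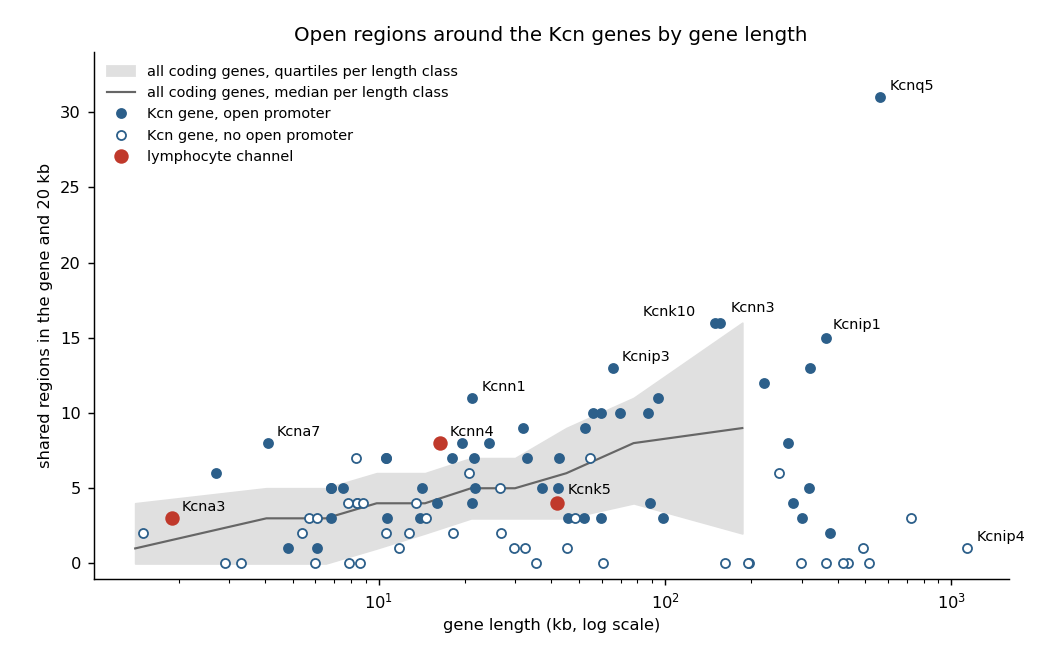
Count of shared regions per window against gene length (log scale) for the 94 Kcn genes, with the median (line) and quartiles (band) of all protein-coding genes in 10 length classes. Kcnq5 stands highest with 31 regions.

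In 9 of the 53 open members (17.0%) the strongest region of the window was an own promoter, beside 40.5% of all open genes. Of the 455 regions 50 (11%) stood above the 90th percentile of all shared regions, and 20 of the 94 members (21.3%) had such a region outside promoters, beside 16.0% of all genes, with gene length not taken into account. The median region stood at percentile 51.0, so the regions as a whole were about as strong as all others although the members' promoters were weaker. The 455 regions include the 69 promoters of other genes, and no median was taken without them. Between replicates 5 of the 455 (1.1%) differed by more than 1.5-fold, against 2.18% of all shared regions. Another 78 regions were in the list of replicate 1 alone and 32 in that of replicate 2 alone, with median signals of 2.89 and 3.07. The shared regions of the windows had medians of 6.95 and 6.78.

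Of the 53 open members, 48 were open at the 5′-most start and 5 at a later start alone, namely Kcnab1, Kcne3, Kcnip3, Kcnj15 and Kcnj16. Promoter summits lay a median of 133 bp from the nearest start, and 49 of 65 lay within 500 bp. For Kcna3, Kcnu1 and Kcnh8 every promoter summit was more than 1 kb from a start of the gene.

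The other genes of ion transport in lymphocytes were open throughout. All 30 genes of a list of calcium and other cation channels, pumps, chloride and volume channels and channel regulators had open promoters, with median signals of 11.3 and 11.1, the same as those of all genes. The list was made of genes known from lymphocytes, so its share is no independent sign. For store-operated calcium entry, the channel gene Orai1 had 11.3 and 11.1. The sensor gene Stim1 had 10.7 and 9.93, and Stim2 had 7.88 and 7.73. Of the calcium release channels and pumps, Itpr1 had 13.3 and 13.9, with 48 regions, and Atp2b1 had 10.4 and 11. Of the proteins reported to regulate the lymphocyte potassium channels, Pik3c2b had 11.8 and 11.6, Nme2 13.2 and 12.8, and Dlg1 15.5 and 15.9. In signal percentile the lymphocyte channels (median 22.8) were close to the other open potassium channels (23.4), and by −log10 q they stood at 42.1, against 18.2. With 3 genes no test was made.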

How the data were processed

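Regions of open chromatin were measured in 2 biological replicates of 1 group, each with its own deposited list. The signal of each region, its −log10 p and −log10 q, its display score and its summit are values that the authors deposited, on mm10 per the labels, with replicates called separately. Aligner and caller were not given in the sources used here. How many reads lie behind the lists is unknown, so no interval for reads is given. Region names hold the words ASTARR, insert and masked and a time, which no source explains, and the assay follows the labels.

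Overlapping regions of both lists (at least 1 bp) were joined, keeping the strongest signal of each replicate. The summit kept was that of the region of highest −log10 q. Genes and starts came from GENCODE M21 and sequence from GRCm38.p6, and 27 duplicated symbols were joined. Percentiles rank a gene among all protein-coding genes with an open promoter, or its region number among genes of 1 of 10 length classes. Motif words were counted on either strand within 100 bp of summits. Printed stretches avoid exons of GENCODE and RefSeq. With 1 group no test was possible, so counts stand beside those of all genes. The binomial interval covers counting error over genes only. Kcna3, Kcnn4 and Kcnk5 were described in full, and a few members are not reported here by name, though they stay in the counts. In each role the named members are chiefly those of highest and lowest promoter percentile and of most regions. The gene family, the lymphocyte channels and the lists were picked with earlier results of these data known, while the symbol decides membership. Calls on planted regions were tested on simulated data. Python 3.11.15, pandas 2.3.3, pysam 0.24.0, samtools 1.23.1 and matplotlib 3.10.9 were used. Alternatives changed the distance to a start, the starts, the summit, the cutoffs, the overlap, the window and the replicates.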

Additional observations from a re-analysis of the deposited data

How the results depend on the processing

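The number of open potassium channel genes was 53, and 50 to 57 in every alternative (54 to 55 without 1 replicate) except with the 50000 regions of highest −log10 p in each list, where it was 35 (37.2%, against 58.7% of all genes). That cutoff also gave 50% of the CpG-rich members open, against 87.9% of all CpG-rich genes. In the other alternatives, chosen after seeing the data, the CpG-rich shares were 64.0% to 74.3% against 92.9% to 95.8%. The median promoter percentile, 22.8, was 21.3 within 500 bp, 23.8 within 2.5 kb, 19.4 with starts of coding transcripts alone and 19.4 with the summit rule, 22.2 at a −log10 q of at least 5, 26.4 with the 50000 regions, 18.5 when ranked by −log10 q, and 21 to 23 without 1 replicate. The 455 regions became 252 with the 50000 regions, 241 in the gene body alone and 770 within 50 kb, and 487 to 541 without 1 replicate. Of the lymphocyte channels, 2 of 3 were open under the summit rule, without Kcna3, and 3 otherwise. The causes were not tested, other than that smaller windows and shorter lists hold fewer regions. No paired analysis was possible because there is 1 group. Reads behind each list are unknown, so a closed promoter means that no shared region was listed.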
